A study of Mus musculus with 4 samples.

Results

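The 10 genes described here encode protein disulfide isomerases and oxidases of the endoplasmic reticulum (ER) and the secretory pathway. They are P4hb, Pdia3, Pdia4, Pdia5, Pdia6, Txndc5, Txndc11, Tmx1, Ero1b and Qsox1. They were looked up by symbol among the 32286 features of the deposited count tables, where all 10 were found (Ero1b under its older symbol, Ero1lb). The RNA of single nuclei was measured in 4 libraries made from cortex and hippocampus of mice at 5 weeks of age, each library from 1 mouse. The 2 libraries labelled Sel1L flox/flox carry Sel1L alleles flanked by loxP sites, and the 2 labelled Sel1L Syn-Cre carry the same floxed alleles with a Cre recombinase driven by the Synapsin I promoter, which is active in postmitotic neurons. The nuclei were stained with propidium iodide, sorted by fluorescence, and sequenced with 10x Genomics 3′ chemistry, which counts RNA molecules near their 3′ ends by unique molecular identifiers (UMIs).

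Proteins that pass through the secretory pathway are stabilised by disulfide bonds between cysteines, and protein disulfide isomerases make, break and rearrange these bonds in the lumen of the ER through thioredoxin-like domains. The ERO1 oxidases take electrons from the isomerases and hand them to oxygen, which keeps the isomerases able to form further bonds, while QSOX1 joins cysteines directly and acts mostly in the Golgi and outside the cell. SEL1L is the adaptor of the HRD1 ubiquitin ligase in ER-associated degradation, the pathway that returns misfolded proteins to the cytosol for destruction. Several isomerases are textbook targets of the unfolded protein response, the program by which cells enlarge the folding capacity of the ER. Neurons secrete neuropeptides and carry many disulfide-bonded receptors, channels and adhesion proteins at their surface.

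The tables held 36619 nuclei, of which 33304 were kept, with 66436503 to 101224188 UMIs per library and medians of 7264 to 8411 UMIs per nucleus. Clusters were named from marker genes, and a name with "-like" rests only on these. At least 3 markers of the type had to be detected, at a set level against other clusters. A cluster stayed unnamed where genes of another list led it, or where it was shallow and none of its markers led. A neuron cluster also stayed unnamed where another cluster held more markers of the same type. Of the kept nuclei, 22553 were neuron-like, and 17586 of these fell into 14 named subtypes, while 4967 neuron-like nuclei stayed unnamed and 968 other nuclei took no name. Libraries shared 10 to 34 cell barcodes in each pair. RNA of Sel1l, the gene that the Cre targets, was at 97.1 and 90.1 CPM (counts of a gene scaled to a common library total) in the libraries labelled Sel1L flox/flox and at 155 and 128 CPM in those labelled Sel1L Syn-Cre, so it was higher where it should be lost. Counts near the 3′ end cannot tell whether a floxed exon is missing. RNA of the Cre itself had 234 and 217 UMIs with the label Sel1L Syn-Cre, but also 415 UMIs in replicate 1 and 0 UMIs in replicate 2 with the label Sel1L flox/flox, so every direction given here is one between libraries as labelled. Xist RNA was at 0.445 and 1617 CPM in replicates 1 and 2 of Sel1L flox/flox and at 2.20 and 1473 CPM in those of Sel1L Syn-Cre, so a female-typical level came with replicate 2 of each label.

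In the GRCm38 build (GENCODE vM21 annotation), P4hb lies at chr11:120560298-120573253 on the minus strand, Pdia3 at chr2:121413775-121438687 on the plus strand and Pdia4 at chr6:47796141-47813430 on the minus strand. Pdia5 spans chr16:35397312-35490873 on the minus strand and Pdia6 spans chr12:17266545-17284770 on the plus strand. Txndc5 is found at chr13:38500079-38528824 and Txndc11 at chr16:11074911-11134650, both on the minus strand, and Tmx1 at chr12:70453095-70468040 on the plus strand. Ero1b lies at chr13:12565874-12611396 on the plus strand and Qsox1 at chr1:155776029-155812889 on the minus strand. Pdia3, Pdia6, Txndc5 and Txndc11 each overlap a counted gene on the opposite strand, over 18 bases (Catsper2), 50 bases (Atp6v1c2), 224 and 1422 bases (Bmp6 and Gm31834) and 75 bases (Snn), and their reads can be told apart only if the counting used strand, which is not given in the sources used here.

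The first question was where these genes are expressed in the libraries labelled Sel1L flox/flox. Neuron-like nuclei were compared with the mean of 5 other classes and differed upward in 4 members (edgeR quasi-likelihood test, Benjamini-Hochberg adjusted p below 0.05), beside 36.0% of all genes tested. These 4 were Pdia5, which is tied to the activation of the stress sensor ATF6 (log2 difference 1.63, adjusted p = 6.04e-06), the oxidase Ero1b (1.53, adjusted p = 5.44e-11), Qsox1 (0.47, adjusted p = 0.00435) and Txndc11, which works beside the EDEM mannosidases in glycoprotein disposal (0.30, adjusted p = 0.00829). Levels of P4hb, Pdia3 and Pdia4 were lower in neuron-like nuclei than in the mean of the other classes, with log2 differences of -1.03, -0.64 and -0.74. The oxidase Ero1b stood at 66.0 and 60.6 CPM in neuron-like nuclei (CPM scaled by TMM, the trimmed mean of M-values), above every other class, of which microglia-like nuclei at 37.1 and 42.9 CPM came next.

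The other classes held fewer of the members above the rest. Endothelial-like nuclei were higher in 2 members (15.7% of all genes), Txndc5, an isomerase also called EndoPDI (34.4 and 41.9 CPM, log2 difference 1.86), and Pdia5 (21.7 and 17.9 CPM, log2 difference 2.39). That cluster also held all 6 markers of vascular fibroblasts or pericytes, summing to 2834 and 3491 CPM, and all 6 astrocyte markers at 1944 and 2768 CPM, beside 4856 and 7061 CPM for the 6 endothelial markers, and their part in these values was not tested. Astrocyte-like nuclei were higher in 1 member (20.4% of all genes), Txndc5, at 22.0 and 16.01 CPM. Oligodendrocyte-like nuclei were also higher in 1 member (25.3%), P4hb, the founding isomerase of the family and a subunit of collagen prolyl hydroxylase, at 28.9 and 25.6 CPM. Microglia-like nuclei were higher in 3 members (27.1%), namely Pdia3, Txndc11 and Ero1b, and OPC-like nuclei (oligodendrocyte precursor cells) in 0 members (22.0%), with 2 members at an unadjusted p below 0.05, both of them lower (18.8% of all genes); DESeq2 was not run for these levels. With 10 members, counts this close to the background shares say nothing about the members as a group. They also moved with the scaling, since library totals in place of TMM gave 2 members in neuron-like, 0 in oligodendrocyte-like and 5 in endothelial-like nuclei.

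Within the neurons of the same 2 libraries, the subtypes mostly overlapped in their levels, and only some members had a clear order. Pdia5 was highest in nuclei like the near-projecting neurons of layers 5/6 (L5/6 NP-like; 35.4 and 23.9 CPM by the pseudobulk's own total), followed by granule neurons of the dentate gyrus (DG-like; 20.1 and 16.7 CPM) and L6b-like neurons (18.9 and 16.5 CPM), whose ranges overlap each other. It was lowest in nuclei like the pyramidal tract neurons of layer 5 (L5 PT-like; 1.93 and 2.20 CPM), below Sst-like (3.45 and 3.70 CPM) and Pvalb-like nuclei (4.14 and 3.31 CPM). Ero1b had its lowest mean in Pvalb-like interneurons (32.3 and 33.5 CPM), which overlapped with L5/6 NP-like (43.3 and 29.6 CPM) and L6b-like nuclei (42.02 and 33.1 CPM). It had its highest mean in neurons like those of layer 2/3 that project within the telencephalon (L2/3 IT-like; 55.5 and 59.9 CPM), where it overlapped with Sst-like (55.9 and 57.7 CPM) and L4/5 IT-like nuclei (56.0 and 54.6 CPM). Txndc11 ran from 51.6 and 47.5 CPM in DG-like to 76.3 and 81.7 CPM in Vip-like nuclei. Qsox1 ran from 10.8 and 11.9 CPM in L4/5 IT-like to 26.1 and 18.9 CPM in L5/6 NP-like nuclei, each overlapping its neighbour in the order. P4hb, Pdia3, Pdia6 and Tmx1 had overlapping neighbours along the whole order of 14 subtypes.

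The main question was how the members differed between the labels in each subtype. UMIs of a subtype were summed per library, and the 4 sums were compared with edgeR. Such a sum cannot tell more RNA per nucleus from more nuclei with the RNA. Over the 14 neuron subtypes, 139 pairs of a member and a subtype were tested. Of these, 28 were called higher in the libraries labelled Sel1L Syn-Cre and 0 lower, while 115 had a log2 fold change above 0. Beside them, 0.00776% (CA1-like) to 8.77% (Sst-like) of all genes tested in a subtype were called in either direction. A log2 fold change above 0 was seen in 49.18% (L5/6 IT-like) to 51.14% (Pvalb-like) of these genes. Over all 19 classes, 183 pairs were tested, and 1 of them was lower at an unadjusted p below 0.05, beside 5.58% of all pairs of a gene and a class. No setting tried, DESeq2 included, called a member lower. The members called at least once were P4hb, Pdia3, Pdia4, Pdia5, Pdia6, Txndc11 and Ero1b, and those called in no class were Txndc5, Tmx1 and Qsox1. Folds of the 28 called pairs ran from 1.61 to 12.1.

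The calls gathered in a few subtypes. Sst-like interneurons had 7 members called of 10, beside 8.77% of all genes tested in that subtype, and Pvalb-like interneurons had 7 of 10, beside 4.46%. DG-like granule neurons had 6 of 10 (background 3.89%), Lamp5-like interneurons 4 of 10 (1.27%), L4/5 IT-like neurons 3 of 10 (1.53%) and CA3-like pyramidal neurons 1 of 10 (0.0822%). The median log2 fold change of the members was 1.64 in Sst-like, 1.51 in Pvalb-like, 1.44 in DG-like and 1.08 in Lamp5-like nuclei, while the median of all genes tested lay between -0.001 and 0.01 in these 4 subtypes. All 10 members had a fold change above 1 in each of these 4 subtypes and in L4/5 IT-like neurons, where 49.9% to 51.1% of all genes tested did. Leaving out replicate 1 of Sel1L Syn-Cre took the Lamp5-like count to 0, as did DESeq2, and leaving out replicate 1 of Sel1L flox/flox took the L4/5 IT-like count to 6. With the replicate number, which went with the Xist level, as a block, the Lamp5-like count was 7 and the L4/5 IT-like count 6. The share of all genes called with the block was not counted. In pseudobulks thinned to equal totals the L4/5 IT-like count was 0.

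**Figure D1:**
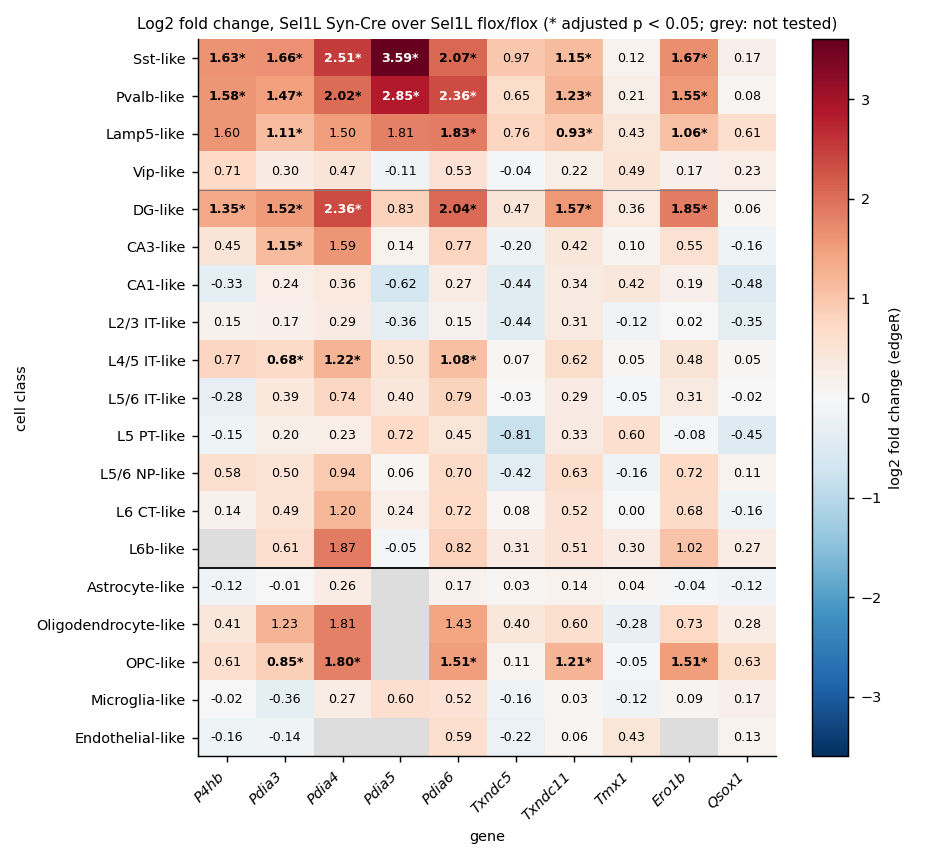
Log2 fold changes of the 10 members (columns) in 14 neuron subtypes and 5 other classes (rows), libraries labelled Sel1L Syn-Cre over Sel1L flox/flox, from edgeR; an asterisk marks an adjusted p below 0.05 and grey a pair that was not tested. The 33 marked pairs are all above 0 and lie in Sst-, Pvalb-, Lamp5-, DG-, CA3-, L4/5 IT- and OPC-like nuclei, with Pdia5 in Sst-like nuclei at 3.59 as the darkest cell.

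Among the isomerases, P4hb rose in 3 subtypes. In Sst-like nuclei its level was 10.2 and 11.9 CPM with the label Sel1L flox/flox and 42.8 and 24.5 CPM with the label Sel1L Syn-Cre. Both Sel1L Syn-Cre libraries lay above both others, with a log2 fold change of 1.63 ± 0.294 (SE, n = 2 mice per label; edgeR adjusted p = 0.00117). Pvalb-like nuclei went from 10.7 and 8.41 to 31.8 and 26.5 CPM (1.58 ± 0.249, edgeR adjusted p = 0.0029), and DG-like nuclei from 11.3 and 9.51 to 30.6 and 22.9 CPM (1.35 ± 0.212, edgeR adjusted p = 0.00225). Lamp5-like nuclei had a fold change of the same size that did not pass the test (4.70 to 9.09 against 20.8 to 23.7 CPM, log2 1.60, edgeR adjusted p = 0.0893). P4hb was not tested in L6b-like neurons because of low counts.

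Pdia3 (ERp57), which works with calnexin and calreticulin on glycoproteins, was called in 6 subtypes by edgeR, more than any other member by that test. Its values were 47.2 and 30.8 against 138 and 112 CPM in Sst-like nuclei (log2 fold change 1.66 ± 0.187), 48.2 and 47.5 against 147 and 119 CPM in Pvalb-like nuclei (1.47 ± 0.157) and 50.1 and 39.0 against 139 and 119 CPM in DG-like nuclei (1.52 ± 0.142). The labels did not overlap in any of the 3. Lamp5-like nuclei followed (49.99 and 34.1 against 109 and 78.4 CPM, 1.11 ± 0.236, edgeR adjusted p = 0.0303). CA3-like pyramidal neurons had 31.3 and 26.6 against 62.7 and 66.9 CPM (1.15 ± 0.162, edgeR adjusted p = 0.0262), and Pdia3 was the only member called there. L4/5 IT-like neurons had 38.0 and 31.2 against 58.6 and 53.1 CPM, which at 0.68 ± 0.139 (edgeR adjusted p = 0.0464) was the smallest of the 28 changes. Its fold change was above 1 in all 14 subtypes. By DESeq2 the calls of Pdia3 in Lamp5-like (DESeq2 adjusted p = 0.12) and L4/5 IT-like nuclei (0.0649) did not pass. In CA3-like nuclei its call did not pass in thinned pseudobulks (edgeR adjusted p = 0.17) or with doublets kept (edgeR adjusted p = 0.0855).

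Pdia4 (ERp72), an isomerase with an extra thioredoxin-like domain that is a classic target of the unfolded protein response, rose more steeply. Sst-like nuclei had 10.6 and 7.56 CPM with the label Sel1L flox/flox and 65.0 and 41.0 CPM with the label Sel1L Syn-Cre (log2 fold change 2.51 ± 0.275, edgeR adjusted p = 7.15e-06). DG-like nuclei had 13.7 and 8.12 against 64.7 and 51.1 CPM (2.36 ± 0.213, edgeR adjusted p = 1.89e-05). The groups did not overlap in either subtype. Pvalb-like nuclei had 13.1 and 7.57 against 53.9 and 33.0 CPM (2.02 ± 0.296), and L4/5 IT-like neurons had 9.35 and 6.21 against 19.5 and 17.4 CPM (1.22 ± 0.220, edgeR adjusted p = 0.0308). In CA3-like neurons the 4 values also did not overlap (10.8 and 5.76 against 29.5 and 21.9 CPM, log2 1.59), but the edgeR adjusted p was 0.137.

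Pdia5 had the largest fold change of any member and the fewest subtypes among those called, 2. In Sst-like interneurons it had 10 and 7 UMIs with the label Sel1L flox/flox and 108 and 54 UMIs with the label Sel1L Syn-Cre, which is 3.66 and 3.78 against 57.1 and 33.0 CPM. The log2 fold change was 3.59 ± 0.346 (edgeR adjusted p = 1.61e-06), a fold of 12.1. Pvalb-like interneurons had 4.35 and 3.36 against 31.3 and 26.1 CPM (2.85 ± 0.294, edgeR adjusted p = 0.000193). These are subtypes in which Pdia5 was among the lowest in the libraries labelled Sel1L flox/flox. In both, it passed the filter on low counts only through the libraries labelled Sel1L Syn-Cre, where it was high. Pdia5 had 15 and 8 UMIs with the label Sel1L flox/flox in Pvalb-like nuclei, so both folds rest on few UMIs in those libraries. In DG-like neurons, where it started at 20.8 and 16.9 CPM, it reached 43.2 and 24.4 CPM, and the log2 fold change of 0.83 did not pass the test (edgeR adjusted p = 0.0652). In L5/6 NP-like neurons, where it was highest, it had 36.8 and 24.3 against 33.2 and 32.6 CPM, and the groups overlapped.

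Pdia6 (P5), an isomerase that binds the chaperone BiP, was called in 5 subtypes. Pvalb-like nuclei had 22.1 and 18.5 against 112 and 97.7 CPM (log2 fold change 2.36 ± 0.174, edgeR adjusted p = 3.93e-05). Sst-like nuclei had 32.2 and 24.3 against 127 and 115 CPM (2.07 ± 0.176, edgeR adjusted p = 4.21e-07), and DG-like nuclei had 36.6 and 31.3 against 156 and 126 CPM (2.04 ± 0.142, edgeR adjusted p = 1.59e-06). Both Sel1L Syn-Cre libraries lay far above both Sel1L flox/flox libraries in each. Lamp5-like nuclei had 18.2 and 31.7 against 98.2 and 73.3 CPM (1.83 ± 0.274) and L4/5 IT-like neurons had 30.4 and 21.4 against 61.5 and 49.4 CPM (1.08 ± 0.181). Its log2 fold change was above 0 in all 14 subtypes, from 0.15 in L2/3 IT-like neurons upward.

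Of the thioredoxin-domain proteins, Txndc11 rose in 4 subtypes. DG-like nuclei had 53.4 and 48.3 against 168 and 135 CPM (log2 fold change 1.57 ± 0.137, edgeR adjusted p = 1.64e-05). Pvalb-like nuclei had 79.5 and 75.3 against 181 and 183 CPM (1.23 ± 0.134), and Sst-like nuclei 73.2 and 75.6 against 180 and 149 CPM (1.15 ± 0.1498). The replicates of a label lay close together and the labels far apart. Lamp5-like nuclei had 78.0 and 68.1 against 146 and 135 CPM (0.93 ± 0.183, edgeR adjusted p = 0.0209).

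Txndc5 and Tmx1, an isomerase anchored in the ER membrane that associates with calnexin, were called in no subtype (edgeR). Txndc5 came closest in Sst-like nuclei, with 12.4 and 7.56 against 22.2 and 18.3 CPM (log2 fold change 0.97 ± 0.314, adjusted p = 0.062). Its 4 values there did not overlap between the labels, and its fold change was above 1 in 7 of 14 subtypes. Tmx1 had log2 fold changes from -0.16 in L5/6 NP-like to 0.60 in L5 PT-like neurons, and its lowest adjusted p in any class was 0.413. In Sst-like nuclei Tmx1 stood at 25.6 and 33.5 against 29.1 and 34.2 CPM, so the labels overlapped in the subtype where Pdia5 and Pdia4 differed most.

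Of the oxidases, Ero1b rose in 4 subtypes. DG-like nuclei had 44.0 and 34.3 CPM with the label Sel1L flox/flox and 161 and 123 CPM with the label Sel1L Syn-Cre (log2 fold change 1.85 ± 0.157, edgeR adjusted p = 1.47e-05). Sst-like nuclei had 59.3 and 58.9 against 208 and 166 CPM (1.67 ± 0.155, edgeR adjusted p = 1.1e-06), and Pvalb-like nuclei had 34.0 and 34.1 against 115 and 84.5 CPM (1.55 ± 0.180, edgeR adjusted p = 0.000356). The labels were well apart in each. Lamp5-like nuclei had 60.6 and 39.9 against 120 and 96.0 CPM (1.06 ± 0.222, edgeR adjusted p = 0.03). Qsox1, the oxidase that acts mostly beyond the ER, was called in 0 subtypes by edgeR, with log2 fold changes from -0.48 in CA1-like to 0.61 in Lamp5-like nuclei and a lowest adjusted p of 0.459. In Sst-like nuclei Qsox1 had 21.2 and 21.1 against 23.8 and 23.8 CPM, and in DG-like nuclei 9.96 and 13.7 against 11.5 and 12.8 CPM.

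**Figure D2:**
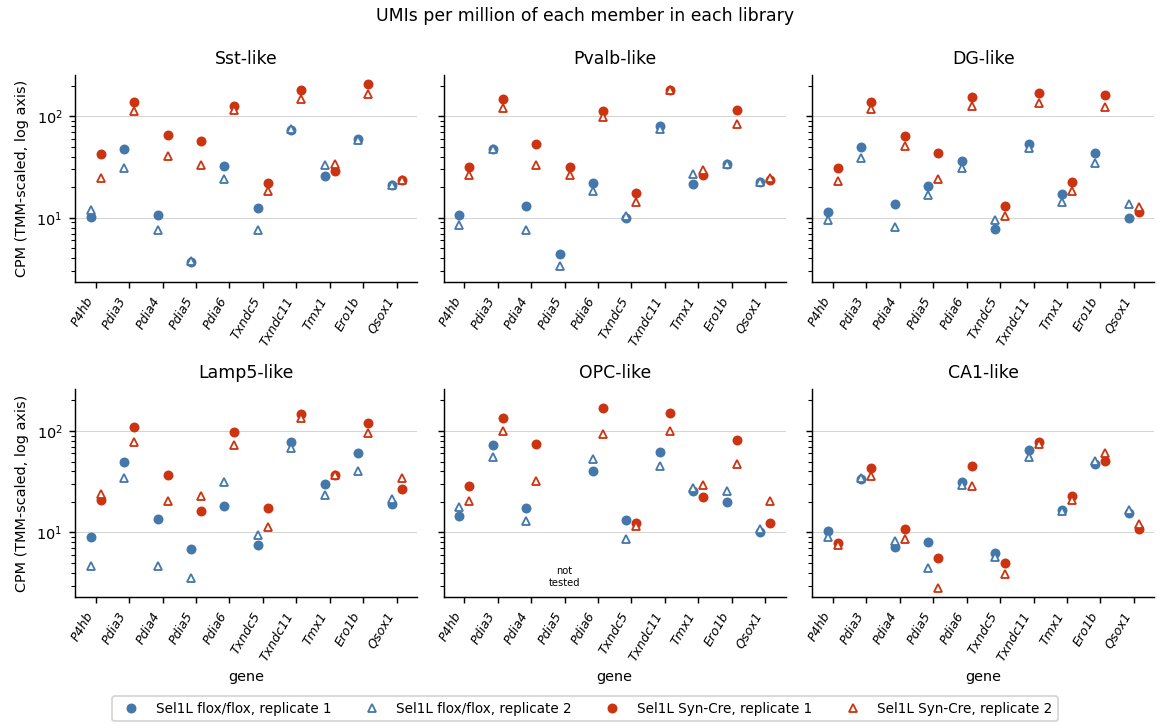
Level of each member in each of the 4 libraries (CPM scaled by TMM, log axis) in 5 classes with calls and in CA1-like neurons; blue marks Sel1L flox/flox, red Sel1L Syn-Cre, filled circles replicate 1 and open triangles replicate 2. In Sst-like nuclei Pdia5 sits at 3.66 and 3.78 CPM in blue and at 57.1 and 33.0 CPM in red, while in CA1-like nuclei Pdia6 sits at 31.8 and 29.3 CPM in blue and at 45.2 and 28.9 CPM in red.

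In 26 of the 28 calls, replicate 1 of Sel1L Syn-Cre was above replicate 2, and in 23 of 28, replicate 1 of Sel1L flox/flox was above replicate 2. The labels did not overlap in any of the 28. A call and a lack of overlap rest on the same 4 values, so this adds no support to the calls. The same applies wherever a called pair is described as not overlapping. In the same subtypes, summed markers of other cell types were checked. The choroid plexus list (4 markers, all detected in Sst-like nuclei) went from 42.1 and 32.8 to 82.2 and 62.7 CPM in Sst-like nuclei, but also from 49.3 and 32.8 to 73.3 and 51.4 CPM in CA1-like nuclei, where no member was called. The astrocyte list (6 markers, all detected) went from 1085 and 1060 to 774 and 771 CPM in DG-like nuclei and from 63.2 and 51.8 to 81.1 and 60.2 CPM in Sst-like nuclei. The part of such RNA in the members' values was not tested.

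In the other 8 subtypes, edgeR called 0 members. For CA1-like pyramidal neurons (0.00776% of genes called), 3 members had an unadjusted p below 0.05, beside 8.82% of genes at that threshold, and DESeq2 called 0. They were Txndc11 (65.1 and 55.0 against 78.5 and 73.9 CPM) and Tmx1 (16.7 and 16.3 against 23.0 and 21.1 CPM), both higher, and Qsox1 (15.7 and 16.8 against 10.9 and 12.2 CPM), lower. At the same unadjusted threshold Vip-like interneurons had 1 member of 10 beside 6.70% of genes, L2/3 IT-like neurons 1 beside 12.5% and L5 PT-like neurons 1 beside 7.86%, which is near the background in each. L5/6 IT-like neurons had 3 of 10 beside 10.2%, L5/6 NP-like 5 of 10 beside 9.27%, L6 CT-like (corticothalamic) 5 of 10 beside 11.8% and L6b-like 5 of 9 beside 9.75%. DESeq2 called 0 members in each of these 7 subtypes, and the genes called at an adjusted p below 0.05 were 0.0262% in Vip-like, 0.275% in L2/3 IT-like, 0.0161% in L5 PT-like, 0.659% in L5/6 IT-like, 0.103% in L5/6 NP-like, 0.565% in L6 CT-like and 0.152% in L6b-like nuclei. With the replicate number as a block, 4 members were called in L6 CT-like neurons and 1 each in L5/6 IT-, L5/6 NP- and L6b-like neurons. The share of all genes called with the block was not counted, so no background stands beside these counts. In L6 CT-like neurons Ero1b had 50.8 and 46.6 against 83.0 and 73.1 CPM (log2 0.68, edgeR adjusted p = 0.0578), and in L5/6 IT-like neurons Pdia6 had 28.5 and 22.3 against 47.6 and 41.4 CPM (0.79, edgeR adjusted p = 0.0517). A missed threshold here does not show that the levels were alike: on simulated counts of the DG-like pseudobulks, 72 of 100 genes changed 2-fold were recovered. Only genes with at least 100 UMIs in all were changed in that simulation, and every gene was given 1 common spread. The share recovered in these 8 subtypes was not simulated and may differ. Leaving out replicate 1 of Sel1L flox/flox gave 2 calls in L5/6 IT-like and 3 in L6 CT-like neurons.

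Because a threshold passed in some subtypes and missed in others is no comparison, the difference of the label effect between each subtype and CA1-like neurons was tested in a single fit over all subtypes, with library as a block. Of 130 such differences, 24 were larger and 0 smaller than in CA1-like neurons (edgeR adjusted p below 0.05). Sst-like interneurons had 8 members with a larger effect (1.98% of all genes), Pvalb-like 7 (1.24%) and DG-like 7 (0.913%). Pdia6 was the only member called in L4/5 IT-like neurons (difference 0.81 ± 0.183, 0.342% of genes) and in Lamp5-like interneurons (1.57 ± 0.265, 0.236% of genes). The count was 0 in CA3-like (0.0373%), L2/3 IT-like (0.118%), L5 PT-like (0.00621%), L5/6 IT-like (0.0373%), L5/6 NP-like (0.0%), L6 CT-like (0.118%), L6b-like (0.0249%) and Vip-like nuclei (0.0%). Of the 80 differences in these 8 subtypes, 18 had an unadjusted p below 0.05, beside 6.61% of all pairs of a gene and a subtype. At that threshold Lamp5-like interneurons had 9 of 10 members, beside 1489 of 16095 genes. L4/5 IT-like neurons had 5 of 10, beside 1421 of 16095 genes. The differences ran highest for Pdia5, at 4.22 ± 0.495 in Sst-like and 3.47 ± 0.481 in Pvalb-like interneurons. Txndc5, called in no subtype by itself, differed from CA1-like neurons in Sst-like interneurons (1.38 ± 0.401, edgeR adjusted p = 0.0405).

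Of the members, only Pdia5 passed the test for a label effect that differed between Sst- or Pvalb-like interneurons and DG-like granule neurons. With DG-like neurons as the reference, a comparison added after the data were seen, 20 differences of Pvalb- and Sst-like interneurons were tested. The share of all genes that passed was not counted for this reference, so no background stands beside these tests. The effect on Pdia5 was larger by 2.05 ± 0.387 in Pvalb-like (edgeR adjusted p = 0.000963) and by 2.80 ± 0.403 in Sst-like interneurons (edgeR adjusted p = 1.54e-05), and none was smaller at an adjusted p below 0.05. For the other members these differences lay between -0.41 (Txndc11, Sst-like) and 0.49 (Txndc5, Sst-like) with standard errors of 0.144 to 0.364. A missed threshold does not show equal effects. Txndc11 had an unadjusted p of 0.00917 in Sst-like and 0.0270 in Pvalb-like interneurons (edgeR), with a smaller effect than in DG-like neurons in both.

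**Figure D3:**
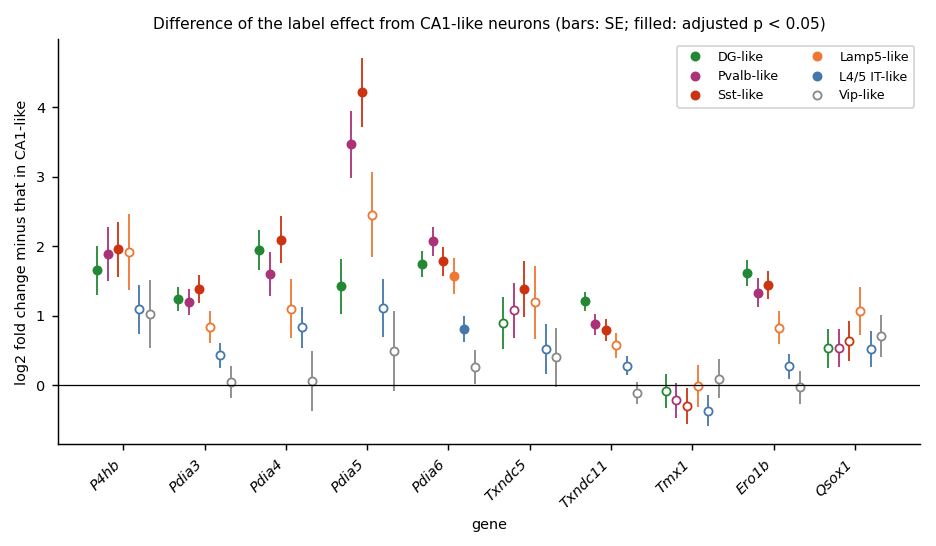
Difference between the log2 fold change of each member in a subtype and that in CA1-like neurons, with its standard error as a bar, for 6 subtypes; filled points have an adjusted p below 0.05. Pdia5 stands highest, at 4.22 in Sst-like and 3.47 in Pvalb-like interneurons, and the Vip-like points are all open.

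Outside the neurons, 44 pairs were tested in 5 classes and 5 were called, all of them higher and all in OPC-like nuclei (background 8.22%). Pdia4 had 17.3 and 13.1 against 74.6 and 32.1 CPM (log2 fold change 1.80 ± 0.301), Pdia6 had 40.4 and 53.0 against 170 and 93.3 CPM (1.51 ± 0.214) and Ero1b had 19.98 and 25.7 against 80.9 and 47.6 CPM (1.51 ± 0.255). The groups did not overlap, and replicate 1 of Sel1L Syn-Cre was the higher in all 5. Txndc11 (62.2 and 45.05 against 150 and 100 CPM, 1.21) and Pdia3 (73.3 and 55.9 against 134 and 100 CPM, 0.85) were the other calls. Without replicate 1 of Sel1L Syn-Cre 3 calls were left, with Pdia4 at 1.05 (edgeR adjusted p = 0.0817) and Pdia3 at 0.61 (edgeR adjusted p = 0.157) past the threshold no longer. The OPC-like cluster differed in make-up between the labels: summed oligodendrocyte markers (6 of 6 detected) stood at 3320 and 2725 against 111 and 238 CPM, immature oligodendrocyte markers (4 of 4) at 2594 and 2334 against 952.5 and 977 CPM, and neuron markers (6 of 6) at 2081 and 1872 against 1901 and 1890 CPM. With names taken from clusters made without integration, where immature oligodendrocytes form a cluster of their own, 5 members were again called in OPC-like nuclei. Marker sums of that OPC-like cluster are not given, and the part of make-up in these calls was not tested.

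Oligodendrocyte-like nuclei had 0 calls by edgeR (background 0.871%), but 5 members of 9 at an unadjusted p below 0.05, beside 10.7% of genes. DESeq2 called 3 members, beside 111 of the 11477 genes tested. The members' values rested on replicate 1 of Sel1L Syn-Cre. Pdia4 had 17.9 and 12.6 against 84.1 and 25.3 CPM, Pdia6 had 40.0 and 32.2 against 144 and 51.6 CPM, and Pdia3 had 53.7 and 45.9 against 156 and 77.8 CPM. Leaving out replicate 2 of Sel1L Syn-Cre gave 4 calls, and leaving out replicate 1 of that label gave 0. Astrocyte-like (0.995%), microglia-like (0.0841%) and endothelial-like nuclei (0.0%) had 0 calls by edgeR or DESeq2 and 0 members at an unadjusted p below 0.05 (12.9%, 8.27% and 6.74% of genes), although leaving out replicate 2 of Sel1L flox/flox gave 1 call in microglia-like nuclei. In astrocyte-like nuclei the median log2 fold change of the members was 0.04, with Pdia3 at 71.0 and 54.5 against 61.4 and 66.4 CPM. Pdia5 was not tested in astrocyte-, oligodendrocyte-, OPC- and endothelial-like nuclei, and Pdia4 and Ero1b were not tested in endothelial-like nuclei.

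Cre RNA was set beside the members because the Synapsin I promoter drives it. In the libraries labelled Sel1L Syn-Cre, Cre averaged 27.1 CPM in Pvalb-like, 15.4 in Sst-like, 9.97 in Lamp5-like, 6.33 in DG-like and 6.20 in CA3-like nuclei, against 2.37 in Vip-like, 0.274 in CA1-like and 0.249 in L5/6 NP-like nuclei. Over the 14 subtypes, Pearson's r between this mean and the median log2 fold change of the members was 0.819 and Spearman's rho was 0.752. This describes 14 points that share their mice and rest on few Cre UMIs, 0 to 68 per subtype in these libraries. The order was uneven: DG- and CA3-like nuclei, close in Cre, had member medians of 1.437 and 0.433. L5/6 NP-like nuclei, with the lowest Cre mean, had a median of 0.536. OPC-like nuclei also held Cre RNA, at 20 and 12 UMIs (17.4 and 11.6 CPM) with the label Sel1L Syn-Cre and 32 and 0 UMIs with the label Sel1L flox/flox, and in oligodendrocyte-like nuclei it had 2 UMIs in replicate 1 of Sel1L flox/flox and none elsewhere.

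The library labelled Sel1L flox/flox replicate 1 also held Cre RNA, at 29.8 CPM in Pvalb-like and 20.7 CPM in Sst-like nuclei. Its Pdia6 was at 22.1 CPM in Pvalb-like nuclei, beside 18.5 CPM in replicate 2, which held no Cre UMI, and 112 and 97.7 CPM in the libraries labelled Sel1L Syn-Cre. Sel1l RNA had 97.7 and 97.3 against 461 and 324 CPM in Sst-like nuclei and 92.2 and 88.6 against 462 and 305 CPM in Pvalb-like nuclei. In OPC-like nuclei it had 124 and 93.1 against 423 and 186 CPM. In CA3-like nuclei, with 1 member called, it had 98.3 and 105 against 188 and 176 CPM. In oligodendrocyte-like nuclei, with 0 members called by edgeR, it had 111 and 105 against 300 and 184 CPM. In CA1-like nuclei it had 116 and 108 against 116 and 102 CPM, and in Vip-like nuclei 96.9 and 91.9 against 105 and 86.7 CPM. Whether the levels of Cre or Sel1l RNA bear on those of the members was not tested.

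**Figure D4:**
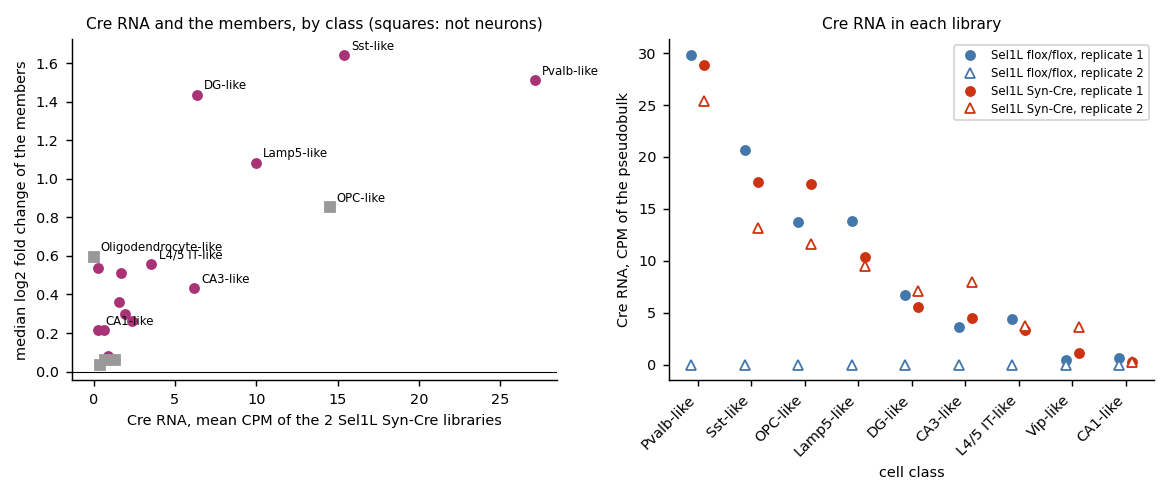
Left, the median log2 fold change of the members against the mean Cre RNA of the 2 Sel1L Syn-Cre libraries in CPM, with 1 point per class (squares are not neurons); right, Cre RNA in CPM in each library for 9 classes. Pvalb- and Sst-like nuclei lie at 27.1 and 15.4 CPM with medians of 1.51 and 1.64, and replicate 1 of Sel1L flox/flox (filled blue) reaches 29.8 CPM in Pvalb-like nuclei.

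Shares of nuclei with a UMI were counted as a second description of the same UMIs. A share of this kind rises with more RNA per nucleus as well as with more nuclei that hold the RNA, so it does not separate them. Each nucleus was thinned to 2000 UMIs, and shallower nuclei were left out (0 to 12 per library in DG-like and 0 to 2 in Sst-like nuclei). In Sst-like nuclei, Ero1b was seen in 8.40% and 12.6% of nuclei with the label Sel1L flox/flox and in 41.6% and 35.1% with the label Sel1L Syn-Cre, against 42.8%, 41.8%, 77.5% and 72.4% before thinning. Pdia6 went from 5.20% and 2.75% to 27.7% and 24.0% in the same nuclei, and Pdia3 from 8.00% and 4.95% to 24.9% and 24.0%.

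The members whose share was above in both Sel1L Syn-Cre libraries numbered 9 of 10 in Pvalb-like nuclei, beside 25.2% of the genes seen in at least as many nuclei as the rarest member. They numbered 8 in DG-like (25.0%), 8 in Sst-like (26.2%), 6 in L4/5 IT-like (22.8%), 3 in CA1-like (20.6%), 1 in Vip-like (17.9%) and 3 in microglia-like nuclei (21.3%). Members below in both Sel1L Syn-Cre libraries numbered 3 in Vip-like (16.2%), namely Pdia3, Pdia4 and Qsox1, 2 in CA1-like (14.7%), namely Pdia3 and Pdia5, and 0 in DG-like (17.4%), Sst-like (17.1%), Pvalb-like (16.6%), L4/5 IT-like (17.2%) and microglia-like nuclei (16.4%). In CA1-like nuclei Pdia3 had 7.78% and 8.45% against 5.61% and 5.32% of nuclei while its CPM ran the other way, so no order is read from that share. Qsox1, counted above in CA1-like nuclei, had 1.90% and 2.36% against 2.46% and 3.19% of nuclei. Its CPM was lower in both Sel1L Syn-Cre libraries, as was its share before thinning, so no order is read from it either. The same holds for the 3 members in Vip-like nuclei. Before thinning, their shares were above in both Sel1L Syn-Cre libraries (Pdia3 28.6% and 21.7% against 29.9% and 32.7%). Their CPM by the pseudobulk's own total was also higher in both. With 2 mice per label a two-sided exact permutation test cannot give a p under 0.333, and every member that did not overlap had that value. Microglia-like nuclei, chosen for the level of free RNA, express the members themselves (Pdia3 in 19.2% and 15.9% against 17.3% and 14.3% of nuclei), so no class gives the level of free RNA, and their medians of 1746 to 1909 UMIs, against 8723 to 10176.5 in Sst-like nuclei, left 188 to 470 nuclei per library out. At 4000 UMIs the Vip-like count was 6 and the Sst-like count 8. Intervals over nuclei are not given, since nuclei of 1 mouse are not replicates.

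**Figure D5:**
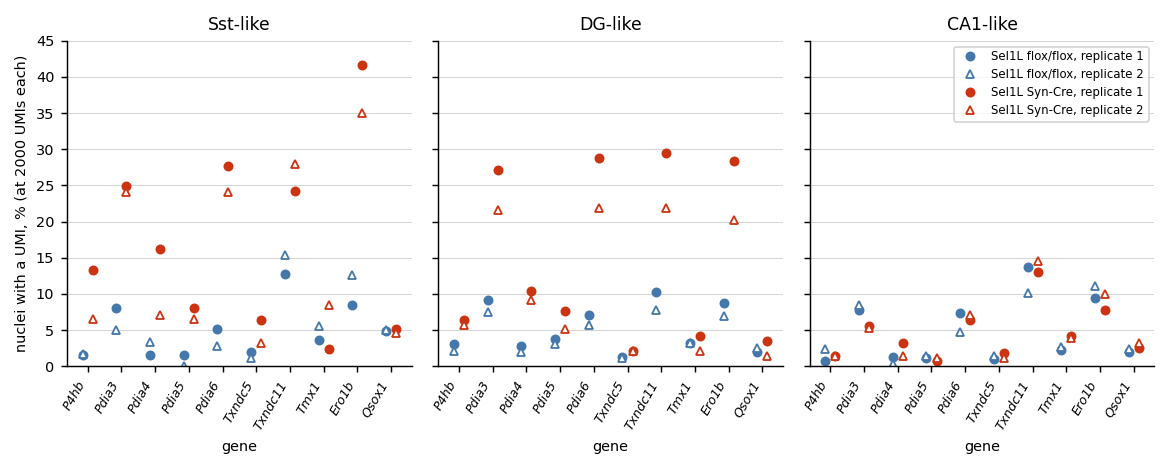
Percent of nuclei with a UMI of each member at 2000 UMIs per nucleus, in Sst-, DG- and CA1-like nuclei, with 1 point per library (blue Sel1L flox/flox, red Sel1L Syn-Cre, filled circles replicate 1, open triangles replicate 2). Ero1b reaches 41.6% and 35.1% in the red points of Sst-like nuclei, and in CA1-like nuclei 7 of 10 members do not have both red points above both blue ones.

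The promoters of the members were searched for short elements that factors of the unfolded protein response are known to bind, because several members moved together. RefSeq promoters of GRCm38.p6, from 250 bases before to 50 after each start site, were found for all 10 members, 13 windows in all. The ER stress response element (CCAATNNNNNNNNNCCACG), bound by ATF6 with NF-Y, was found on either strand in 0.119% of 32851 promoters, its second form (ATTGG, any base, CCACG) in 0.0365%, the XBP1 or ATF6 core (TGACGTGG) in 0.676% and an ATF4 element (TTGCATCA) in 0.895%. The last 5 letters of the first 2 are the reverse complement of the last 5 of the core, so matches could overlap, but none did in these windows. The windows that hold a match are shown, read along the gene's strand with the match in capitals: Pdia6 (chr12:17266339-17266638, plus strand) and Ero1b (chr13:12565633-12565932, plus strand) with the first element, and Txndc11 (chr16:11134483-11134782, minus strand) and 1 of 3 windows of Txndc5 (chr13:38527865-38528164, minus strand) with the core.
Pdia6: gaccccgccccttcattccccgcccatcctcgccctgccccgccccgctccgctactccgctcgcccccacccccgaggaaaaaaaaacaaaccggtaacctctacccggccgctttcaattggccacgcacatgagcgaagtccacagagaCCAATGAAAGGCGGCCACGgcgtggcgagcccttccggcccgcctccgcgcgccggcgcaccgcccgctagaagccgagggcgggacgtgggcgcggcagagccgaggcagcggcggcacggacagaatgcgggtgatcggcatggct
Ero1b: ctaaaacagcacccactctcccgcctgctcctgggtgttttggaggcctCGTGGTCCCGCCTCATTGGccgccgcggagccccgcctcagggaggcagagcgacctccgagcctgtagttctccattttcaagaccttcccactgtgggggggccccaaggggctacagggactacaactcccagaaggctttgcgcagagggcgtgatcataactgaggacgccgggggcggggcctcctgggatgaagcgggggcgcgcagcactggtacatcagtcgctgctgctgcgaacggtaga
Txndc11: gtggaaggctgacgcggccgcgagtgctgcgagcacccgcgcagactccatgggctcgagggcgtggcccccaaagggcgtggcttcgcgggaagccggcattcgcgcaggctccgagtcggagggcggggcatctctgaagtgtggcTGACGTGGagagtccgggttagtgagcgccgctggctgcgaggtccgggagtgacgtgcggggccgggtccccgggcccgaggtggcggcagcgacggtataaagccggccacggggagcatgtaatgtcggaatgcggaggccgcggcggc
Txndc5: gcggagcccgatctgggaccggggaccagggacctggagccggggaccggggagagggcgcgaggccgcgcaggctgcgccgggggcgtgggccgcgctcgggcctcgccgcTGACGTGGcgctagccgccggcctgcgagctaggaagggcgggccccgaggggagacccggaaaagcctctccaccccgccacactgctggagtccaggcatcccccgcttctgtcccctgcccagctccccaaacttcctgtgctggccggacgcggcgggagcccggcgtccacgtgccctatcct
In Pdia6 the element began 98 bases before the start site on the gene's strand, and in Ero1b 201 bases before it on the other strand. In Txndc11 and Txndc5 the core began 102 and 138 bases before the start site. Pdia6, Ero1b and Txndc11 were called in 5, 4 and 4 subtypes and Txndc5 in 0, while P4hb, Pdia3, Pdia4 and Pdia5, called in 3, 6, 4 and 2, had no match to these 4 letter patterns in their windows. A match is a description of letters and not of binding.

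Other genes of the family and of thiol redox in the ER were counted from a list of 23, of which 15 to 17 passed the filter on low counts in a subtype and 5 were tested in no class. Across the 14 subtypes 4 pairs were called, all higher and none lower. They were 2 of 16 genes in DG-like (background 3.89%), 1 of 15 in Pvalb-like (4.46%) and 1 of 15 in Sst-like nuclei (8.77%). Counts this small beside such shares say nothing about the list as a group. Dnajc10 (ERdj5), the ER reductase that opens disulfides ahead of degradation, was called in 3 subtypes: DG-like (56.3 and 62.9 against 85.1 and 84.1 CPM, log2 fold change 0.51, edgeR adjusted p = 0.0266), Pvalb-like (57.5 and 50.04 against 101 and 87.3 CPM, 0.80, adjusted p = 0.0108) and Sst-like nuclei (85.3 and 87.0 against 137 and 127 CPM, 0.61, adjusted p = 0.0096). Erp44, which retains Ero1 oxidases in the early secretory pathway, was called in DG-like nuclei (52.9 and 46.9 against 101 and 87.0 CPM, 0.91, edgeR adjusted p = 0.000843). The median log2 fold change of the list lay between -0.14 and 0.21 over the subtypes, where that of the 10 members reached 1.64. Members and list were chosen with earlier results of these data known, so this contrast cannot set the members apart from the rest of the family. In the 5 other classes the list had 0 calls by edgeR, and 3 of 76 pairs had an unadjusted p below 0.05. Of all genes, 12.9% were at that threshold in astrocyte-like, 10.7% in oligodendrocyte-like, 8.27% in microglia-like and 6.74% in endothelial-like nuclei. In OPC-like nuclei these were 2056 of 11566 genes.

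The genes whose pattern was most like that of each member were found by Pearson's correlation of log2 CPM over 56 pseudobulks (14 subtypes in 4 libraries) among 12412 genes, which describes pseudobulks that share mice, depth and labels. Hyou1, an ER chaperone of the HSP70 family, was among the 3 nearest genes of 6 members: P4hb (0.830), Pdia3 (0.918), Pdia4 (0.910), Pdia6 (0.900), Txndc11 (0.884) and Ero1b (0.859). Hsp90b1, the HSP90 of the ER, was nearest to Pdia3 (0.921) and Pdia4 (0.915), and Hspa5, the chaperone BiP, was nearest to Txndc11 (0.890). Dnajc3 was nearest to Pdia6 (0.902), Ddx50 to Ero1b (0.878) and Slc35b1 to Pdia5 (0.786). The 3 members called in no class had other neighbours, Vac14 for Txndc5 (0.732), Aga for Tmx1 (0.632) and Wsb1 for Qsox1 (0.781). Pdia5, although called, also had none of Hyou1, Hsp90b1 and Hspa5 among its 3 nearest genes (Slc35b1, Spcs2 and Gm12258). Among the members themselves, Pdia3 and Pdia4 were closest (0.909), whereas Qsox1 and Pdia4 had an r of -0.01.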

How the data were processed

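The authors made nuclear libraries with 10x Genomics 3′ chemistry and deposited raw UMI counts for each barcode called as a nucleus. The submitters' processing notes name Cell Ranger 6.1.0 and the GRCm38 build. The deposited counts are not normalized, and whether introns or strand were used in counting is not given in the sources used here. Nuclei with more than 600 genes and under 5% mitochondrial UMIs were kept, and the highest Scrublet scores were left out at 0.8% per 1000 nuclei as doublets. Libraries were integrated in Seurat 5.3.0 (2000 features, 17 dimensions, resolution 0.2, neurons again at 0.4). A cluster took the best-matching type with at least 3 markers detected. For a class, a marker had to be in 20% of nuclei at 25% of the top cluster's level. For a subtype, it had to be in 10% of nuclei at 2 times the level in other neurons. Some clusters that met this stayed unnamed, by the further rules given above. The authors' own annotation was not used.

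UMIs of each class were summed per library where every library had at least 50 nuclei. Neuron subtypes held 60 to 853 nuclei and 836453 to 12027470 UMIs per library, and the other classes 61 to 1851 nuclei and 127171 to 6817609 UMIs. Labels were compared with edgeR 4.0.16 (TMM, filterByExpr, two-sided quasi-likelihood F test, its default prior count, Benjamini-Hochberg over all genes tested in a class, threshold 0.05), 2 libraries against 2, each from 1 mouse. The p-values rest on the spread between these mice, with the spread of each gene drawn toward that of all genes tested. Each standard error is the log2 fold change divided by the root of its F value. Tested on simulated counts of the Sst-like pseudobulks (11738 genes), 73 of 100 genes changed 2-fold and 98 of 100 changed 4-fold were recovered, with 3 other genes called. For DG-like pseudobulks (13099 genes) these were 72, 100 and 2. The simulation gave every gene 1 common spread, so it does not show how the test fares where spreads differ between genes. Named genes are all 10 members in every class, those of 23 other redox genes called in at least 2 subtypes or else up to 3 per class by size, and the 3 genes most like each member. The members and lists were chosen with earlier results of these data known. Alternatives were DESeq2 1.42.0, library totals in place of TMM, no filter on low counts, thinned pseudobulks, doublets kept, names from scanpy 1.11.5 without integration, a prior count of 2, a replicate block, each library left out, Vip-like neurons as the reference and 4000 UMIs for shares; DG-like neurons as the reference were added after seeing the data. Promoters were read from RefSeq. Scripts ran in Python 3.11.15 (scipy 1.17.1, numpy 2.4.6) and R 4.3.3.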

Additional observations from a re-analysis of the deposited data

Results flagged for a closer look

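The label effect on 7 members was larger in DG-like than in CA1-like neurons by a test of the difference itself (edgeR interaction with library as a block, adjusted p below 0.05, log2 scale): P4hb by 1.66, Pdia3 by 1.24, Pdia4 by 1.94, Pdia5 by 1.42, Pdia6 by 1.74, Txndc11 by 1.20 and Ero1b by 1.61. In Pvalb-like interneurons the same test gave 1.88 for P4hb, 1.20 for Pdia3, 1.60 for Pdia4, 3.47 for Pdia5, 2.07 for Pdia6, 0.876 for Txndc11 and 1.33 for Ero1b. In Sst-like interneurons it gave 1.96 for P4hb, 1.38 for Pdia3, 2.10 for Pdia4, 4.22 for Pdia5, 1.79 for Pdia6, 1.38 for Txndc5, 0.794 for Txndc11 and 1.44 for Ero1b. Pdia6 also differed from CA1-like neurons in Lamp5-like interneurons (1.57) and L4/5 IT-like neurons (0.81). Against DG-like neurons, Pdia5 had a larger effect in Pvalb-like (2.05) and Sst-like interneurons (2.80), with no background share counted for that reference.

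Cre RNA lay outside the comparisons of the members. It had 415 UMIs in the library labelled Sel1L flox/flox replicate 1, where no Cre is given by the label, and 20 and 12 UMIs in OPC-like nuclei of Sel1L Syn-Cre replicates 1 and 2, a class outside the neurons.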

How the results depend on the processing

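Of the 33 calls of single members, none changed direction under any alternative. All passed the threshold with library totals in place of TMM, without the filter and with names made without integration. A prior count of 2 enters the reported fold change and not the F test, so it could not change a call. DESeq2 lost 5 of the 32 for which it gave an adjusted p (none for Pdia6 in Lamp5-like nuclei), and thinning to equal totals (836453 UMIs in subtypes, 127171 in other classes) lost 8 of 31 and left 2 untested (Pdia4 and Ero1b in OPC-like nuclei). Keeping doublets lost 2 of 33, and leaving out Syn-Cre replicate 1 or 2 lost 7 or 1; fewer UMIs or mice enter the thinned and left-out fits, and the cause was not tested in the others. Counts of members called moved in several classes. For the alternatives other than DESeq2, the share of all genes called was not counted, so no background stands beside these counts. DESeq2 gave 0 in Lamp5-like (54 of 9869 genes called) and 3 in oligodendrocyte-like nuclei (111 of 11477). Library totals gave 1 in L6 CT-like and 1 in oligodendrocyte-like nuclei, and moved the median of all genes by 0.1216 in Lamp5-like nuclei. Without the filter there were 3 in CA3-like, 5 in L4/5 IT-like, 1 in L5/6 IT-like, 1 in L5/6 NP-like, 3 in L6 CT-like, 2 in L6b-like, 7 in Lamp5-like and 3 in oligodendrocyte-like nuclei. Thinning gave 0 in CA3-like, 0 in L4/5 IT-like and 0 in OPC-like nuclei. Keeping doublets gave 0 in CA3-like and 1 each in L5/6 IT-, L5/6 NP- and L6 CT-like nuclei, and names without integration gave 1 in oligodendrocyte-like nuclei.

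Leaving out 1 library at a time gave 1 to 3 calls in CA3-like, 2 to 6 in L4/5 IT-like, 0 to 2 in L5/6 IT-like, 0 to 1 in L5/6 NP-like, 0 to 3 in L6 CT-like, 0 to 1 in L6b-like, 0 to 6 in Lamp5-like, 0 to 4 in oligodendrocyte-like, 3 to 6 in OPC-like, 0 to 1 in microglia-like, 6 to 7 in DG-like, 7 to 8 in Sst-like and 7 in Pvalb-like nuclei; the lone mouse of an arm is then taken to vary like the others. Larger effects than in CA1-like neurons numbered 1 in CA3-like and 2 in Lamp5-like nuclei with DESeq2. They numbered 0 in L4/5 IT-like neurons against Vip-like neurons. Against DG-like neurons they numbered 0 in L4/5 IT-, 0 in Lamp5-, 1 in Pvalb- and 1 in Sst-like nuclei. The share of all genes with a larger effect was not counted for DESeq2 or for these 2 references. Levels above the mean of the other classes with library totals numbered 2 in neuron-like, 0 in oligodendrocyte-like and 5 in endothelial-like nuclei, and members with more nuclei holding a UMI numbered 6 in Vip-like nuclei at 4000 UMIs.

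With the replicate number as a block, 6 members were called in L4/5 IT-like, 1 in L5/6 IT-like, 1 in L5/6 NP-like, 4 in L6 CT-like, 1 in L6b-like, 7 in Lamp5-like and 3 in oligodendrocyte-like nuclei. All 33 calls passed under the block. The share of all genes called under it was not counted. The labels do not say that the numbers pair mice, but replicate 2 of each label had the female-typical Xist level and replicate 1 did not, so the block also separates the libraries by Xist, and deviations of same-numbered libraries correlated at -0.051 to 0.235 over the classes. Each label holds 2 mice, and low counts left 7 pairs of a member and a class untested.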
